A study of Mus musculus with 16 samples.

Results

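Imprinted genes are expressed from only the maternal or only the paternal copy. The 10 imprinted growth genes described here are Igf2, H19, Dlk1, Peg3, Mest, Plagl1, Grb10, Ndn, Cdkn1c and Igf2r. They were brought together as genes that act on fetal growth and are known to fall together after birth. The choice was made with earlier results of these data known, so that the counts below describe the genes in the hippocampus and do not test that knowledge. All probes whose gene symbol, or an older alias with the same gene number, was one of these names were taken. This gave 15 of the 25697 probes on the array. There were 3 probes for Mest, 3 for Plagl1, 2 for Igf2r and 1 for each of the other 7 genes. A fall after birth was seen for part of the genes. In WT mice 7 of the 10 genes were lower at postnatal day (P) 30 than at P1, Peg3 was higher, neither probe of Igf2r passed the test, and no probe of Plagl1 was detected on any array. Over all tested probes 31.7% were called lower and 28% higher. H19, Dlk1 and Peg3 passed the detection filter through the age where they were high, so that their calls are no separate support.

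Total RNA of whole hippocampus was hybridised to Illumina MouseRef-8 v2 beadchips, on which the fluorescence of many beads is averaged into 1 intensity for each probe. The 16 arrays hold 4 WT and 4 Mef2c-het samples at P1 and the same numbers at P30. Mef2c-het mice, which the labels call KO, carry 1 copy of a conventional allele of the transcription factor gene Mef2c that lacks exon 2 in every cell, and both genotypes are on the C57BL/6J background. The labels give no sex or litter and do not say that each array holds a separate mouse, so that p-values measure the spread between these samples.

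Most of these genes belong to a network that sets body and placental growth before birth and is switched down in many organs as growth slows. Paternally expressed members (Igf2, Dlk1, Mest, Peg3, Plagl1, Ndn) are held to favour the use of maternal resources, and maternally expressed members (H19, Cdkn1c, Igf2r and, in most tissues, Grb10) to restrain growth. In brain the rule does not hold throughout, since Grb10 is expressed from the paternal copy in neurons. Igf2 in brain is made mainly by the choroid plexus, the meninges and blood vessels. The arrays do not tell the parental copies apart.

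Between 12638 and 14150 probes per array had a detection p under 0.05 against negative control beads, and the median number of beads behind a signal was 36 to 39. The arrays of each age were cut into 2 clusters, a number set in advance, by the correlation of their log2 intensities before normalization. The smaller cluster held WT replicate 8 and Mef2c-het replicate 8 at P1, and WT replicates 6 and 7 and Mef2c-het replicate 7 at P30. These 5 arrays had the highest background, with a 5th percentile of intensity of 140 to 161 against 106 to 131 on the other 11. Mef2c was read by 3 probes whose place relative to exon 2 is not known here, so that they do not check the genotype labels. Its log2 signal at probe ILMN_2732465 was 9.15 to 9.73 in Mef2c-het and 9.39 to 9.61 in WT at P1, and 8.97 to 9.92 against 9.61 to 9.80 at P30. Markers of other cells differed between the ages: all 11 tested genes of proliferating cells and all 10 of immature neurons were lower at P30 in WT, and all 9 oligodendrocyte genes were higher. In whole tissue, fewer cells of a type and less RNA per cell cannot be told apart.

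The sequence just upstream of each gene's start shows how unlike the members are in promoter type. RefSeq promoter sequences (GRCm38.p6, 300 bases each, ending shortly after the start) matched 8 of the 10 genes with 14 entries, and none was found for H19 and Cdkn1c. CpG dinucleotides, the sites of imprint methylation, numbered from 2 in an Igf2 promoter to 45 in 1 of the 2 Grb10 entries, against a median of 7 over all 32851 mouse promoters of this length. The letters TGCCGC, the core bound by ZFP57 when methylated, were searched on both strands and stood in 5 of the 14 entries (35.7%), from Mest, Igf2, Plagl1 and Grb10, against 11.6% of all promoters. Of these entries 2 belong to Mest and overlap almost wholly. TGCCGC itself holds a CpG, most of the 14 entries had more CpG than the median promoter, and the comparison was not matched for CpG. The letters GGGGCCCC, a site of PLAGL1 itself, stood in 1 entry, that of Peg3, and in 1.08% of all promoters. CTANNNNTAG, a loose form of the site of MEF2 factors, stood in 1 entry, a Grb10 promoter, and in 3.69% of all. No entry held matches to more than 1 of these motifs, and a match is a description and not a binding site. The following 4 promoters show the genes at the extremes of the age change among those with an entry, Mest, Grb10 and Peg3, and the Igf2 promoter that holds a match, with TGCCGC (or GCGGCA on the other strand) and GGGGCCCC in capitals, each written 5′ to 3′ on the gene's strand.
Mest, chr6:30737800-30738099, plus strand: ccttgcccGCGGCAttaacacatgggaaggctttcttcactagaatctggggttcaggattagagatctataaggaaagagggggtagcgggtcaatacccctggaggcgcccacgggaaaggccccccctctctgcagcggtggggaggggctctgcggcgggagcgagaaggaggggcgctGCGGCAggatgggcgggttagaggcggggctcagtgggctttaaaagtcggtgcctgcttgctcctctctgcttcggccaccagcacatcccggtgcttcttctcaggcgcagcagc
Grb10, chr11:12037371-12037670, minus strand: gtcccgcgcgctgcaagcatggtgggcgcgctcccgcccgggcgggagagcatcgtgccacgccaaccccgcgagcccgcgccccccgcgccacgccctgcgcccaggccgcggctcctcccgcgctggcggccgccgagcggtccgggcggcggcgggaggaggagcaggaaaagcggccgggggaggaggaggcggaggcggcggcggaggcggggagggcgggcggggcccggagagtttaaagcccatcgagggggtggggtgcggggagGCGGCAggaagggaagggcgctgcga
Igf2, chr7:142661222-142661521, minus strand: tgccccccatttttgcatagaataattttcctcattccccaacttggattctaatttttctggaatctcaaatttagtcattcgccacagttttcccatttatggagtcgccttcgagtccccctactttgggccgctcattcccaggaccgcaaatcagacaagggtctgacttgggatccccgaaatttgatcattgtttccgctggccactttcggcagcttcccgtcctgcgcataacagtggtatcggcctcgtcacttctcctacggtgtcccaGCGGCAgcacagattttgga
Peg3, chr7:6730370-6730669, minus strand: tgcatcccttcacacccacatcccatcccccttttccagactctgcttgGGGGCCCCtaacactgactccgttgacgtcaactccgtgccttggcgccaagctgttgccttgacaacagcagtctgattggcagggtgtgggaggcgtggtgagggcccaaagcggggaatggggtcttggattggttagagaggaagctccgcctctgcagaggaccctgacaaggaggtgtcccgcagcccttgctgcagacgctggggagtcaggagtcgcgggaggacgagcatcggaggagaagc
The Mest promoter held 17 CpG and 2 matches to TGCCGC, the Grb10 promoter 45 CpG and 1 match, the Igf2 promoter 14 CpG and 1 match, and the Peg3 promoter 13 CpG and the only GGGGCCCC.

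The first comparison asked how the genes change between P1 and P30 in WT mice. Signals are log2 intensities after quantile normalization of the 16 arrays, and a change was called when its adjusted p from limma over 14777 probes was under 0.05. By this rule 31.7% of all tested probes were called lower and 28% higher at P30, so that a call alone is common here. Of the 9 members tested, 7 were called lower and 1 higher, and in each of these 8 the arrays of the ages did not overlap. Over all probes, 27.8% had all P30 arrays below all P1 arrays and 25.3% above. Falls of more than 1 on the log2 scale were rarer, at 5.2% of all probes, and 4 members had one: Cdkn1c, Mest, H19 and Grb10. The median log2 fold change of the 9 members was -0.85 against -0.032 over all probes. In both genotypes H19 was detected at P1 alone, Peg3 at P30 alone and Dlk1 on 1 of 4 P30 arrays. These genes passed the filter of 4 detected arrays through the age where they were high. The filter thus in part set the direction of their change, and their calls are no separate support for it. Without the filter the same 8 members were called in WT.

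**Figure D1:**
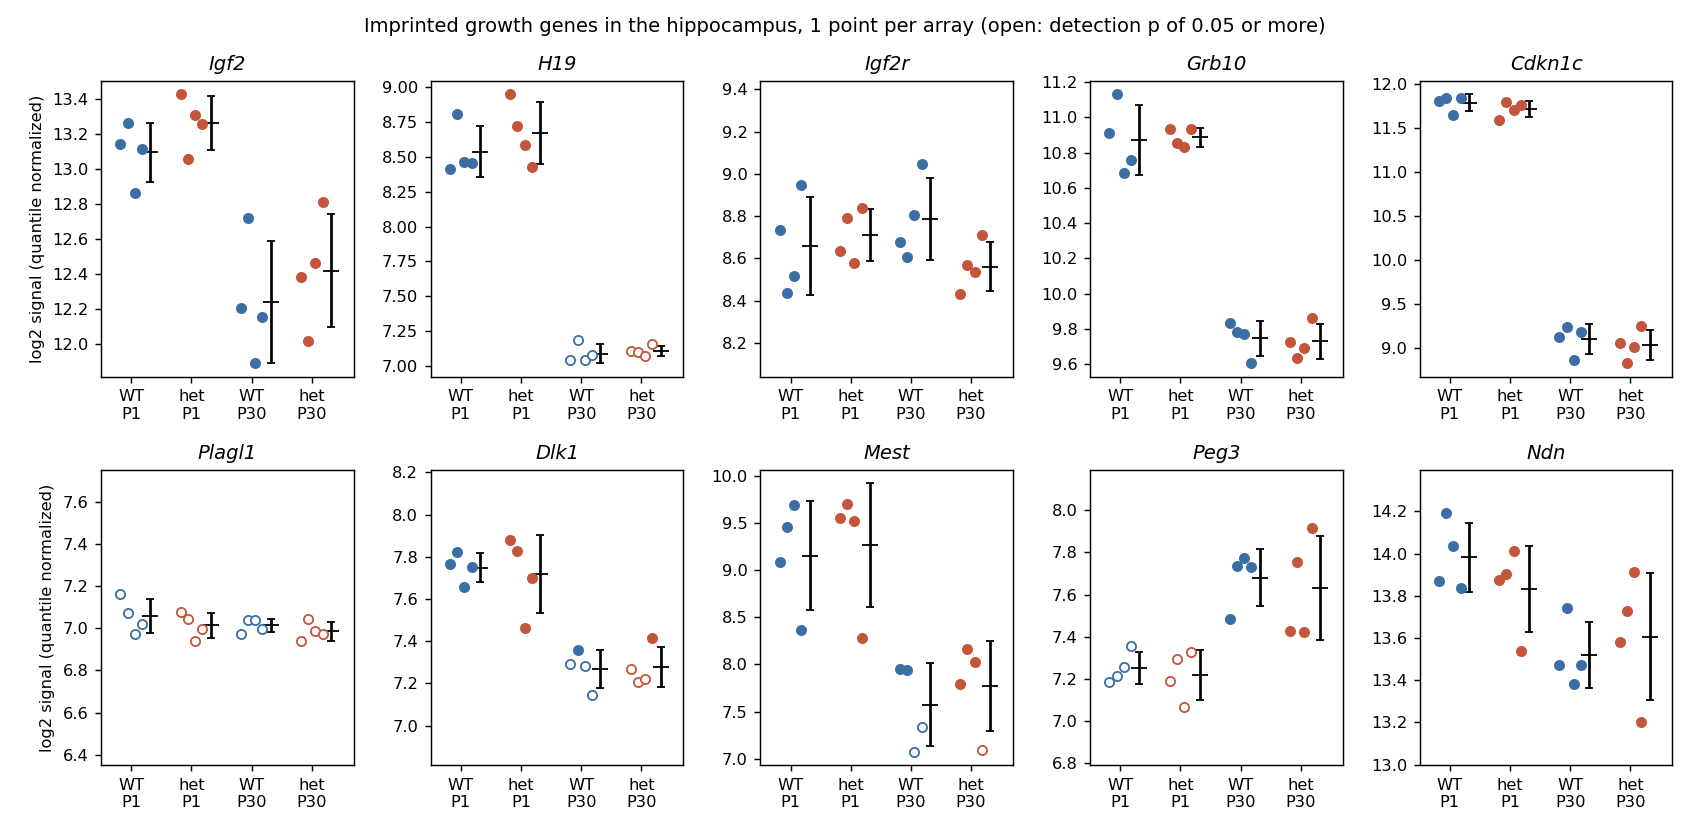
Log2 signal (y axis) of the brightest probe of each of the 10 genes in the 4 groups (x axis), 1 point per array, with the mean and SD of the 4 arrays beside them; open points are arrays on which the probe was not detected. Cdkn1c fell from 11.79 to 9.10 in WT, Peg3 rose from 7.25 to 7.68, and Plagl1 was open on all 16 arrays.

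Ligand, receptor and the H19 partner of Igf2 moved in different ways. Igf2, the fetal insulin-like growth factor, was detected on all 16 arrays. Its log2 signal in WT at P1 was 13.14, 13.27, 12.86 and 13.12 in replicates 1, 4, 5 and 8. At P30 it was 12.21, 12.72, 11.89 and 12.15 in replicates 2, 3, 6 and 7. Every P30 array lay below every P1 array, and the P30 arrays spread more widely. The log2 fold change was -0.85 (standard error 0.17, limma adjusted p = 0.00033), a fall of 1.81-fold. Without the smaller array clusters it was -0.63.

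H19, the untranslated RNA that shares an imprinting control region with Igf2 on chromosome 7 and is expressed from the opposite parental copy, left the detectable range. In WT at P1 its log2 signal was 8.42, 8.81, 8.46 and 8.46, and it was detected on all 4 arrays. At P30 it was 7.04, 7.19, 7.04 and 7.08, and it was detected on none. The mean of H19 was therefore at least 2.31-fold higher at P1. This bound sets the P1 mean against the dimmest signal among the detected probes on each P30 array. Where the probe's own signal was higher, that was used instead. The bound makes no allowance for the spread between arrays. The fitted log2 fold change was -1.45 (standard error 0.10, limma adjusted p = 2.40e-09), and -3.32 after normexp background correction, which subtracts an estimated background before the logarithm.

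Igf2r, the receptor on chromosome 17 that carries IGF2 to lysosomes, was not called at either probe. Probe ILMN_2931095 read 8.73, 8.43, 8.51 and 8.95 at P1 and 8.68, 8.61, 8.81 and 9.05 at P30 in WT, so that the ages overlapped. The log2 fold change was 0.13, with a 95% interval of -0.12 to 0.37 (limma adjusted p = 0.36). The second probe, ILMN_2931096, gave 0.038 with an interval of -0.20 to 0.27. A fall as large as that of Igf2 lies outside both intervals.

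Cdkn1c and Grb10, both known as restrainers of growth, fell by more than 1 on the log2 scale. Cdkn1c, the cyclin-dependent kinase inhibitor p57 that holds dividing precursors at cell cycle exit, read 11.81, 11.85, 11.65 and 11.85 in WT at P1 and 9.13, 9.24, 8.86 and 9.17 at P30. The gap between the ages was far larger than the spread within either. Its log2 fold change of -2.69 (standard error 0.094, limma adjusted p = 6.68e-13) was a fall of 6.44-fold, and ranked 42nd from the largest fall among the 14777 probes. The other inhibitors of the Cip/Kip and INK4 families changed less. Of the 5 tested in WT, Cdkn2c (-0.44) and Cdkn1b (-0.29) were lower, and Cdkn1a (0.20), Cdkn2d (0.19) and Cdkn2b (-0.11) were not called. Grb10, an adaptor that binds and damps the insulin and IGF1 receptors, read 10.91, 11.13, 10.68 and 10.76 at P1 and 9.83, 9.78, 9.77 and 9.60 at P30. All P30 arrays lay below all P1 arrays. Its log2 fold change was -1.12 (standard error 0.086, limma adjusted p = 9.15e-09).

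Among the paternally expressed genes Mest fell most. It encodes a hydrolase-like protein first known from mesoderm, and its 3 probes gave changes of unequal size. Probe ILMN_2846904 read 9.09, 9.46, 9.69 and 8.37 in WT at P1 and 7.95, 7.94, 7.07 and 7.33 at P30, and the 2 lowest values at P30 were not detected. The low values of both ages are those of the smaller array clusters. Over both genotypes this probe was 9.09 to 9.70 on the 6 P1 arrays of the larger cluster and 8.28 and 8.37 on the other 2, and at P30 it was 7.79 to 8.16 on 5 arrays and 7.07 to 7.33 on 3. Its log2 fold change in WT was -1.58 (standard error 0.34, limma adjusted p = 0.00074) and -1.50 without the smaller clusters, and -2.80 after normexp background correction. Probes ILMN_2642417 and ILMN_2642418 gave -1.18 (standard error 0.13) and -0.79 (standard error 0.12), and -1.34 and -1.001 without those clusters. The part of the array background in the spread of Mest was not tested.

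Dlk1, the delta-like membrane protein that holds back differentiation of precursors, was near the detection limit. In WT it read 7.77, 7.82, 7.66 and 7.75 at P1, detected on all 4 arrays, and 7.29, 7.36, 7.28 and 7.14 at P30, detected on replicate 3 alone. The ages did not overlap, and the log2 fold change was -0.48 (standard error 0.084, limma adjusted p = 0.00011). With 3 of the 4 P30 arrays not above background, the size is limited by the background, and it was -1.41 after normexp background correction.

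Ndn, the neuronal protein necdin of the Prader-Willi region, fell by the smallest called amount. In WT it read 13.87, 14.19, 14.03 and 13.84 at P1 and 13.47, 13.74, 13.38 and 13.47 at P30. The lowest P1 array, at 13.84, lay just above the highest P30 array. The log2 fold change was -0.46 (standard error 0.14, limma adjusted p = 0.0083), and under scaling of each array to a common median it was -0.51 with an adjusted p of 0.073, so that the call was lost.

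Peg3 went the other way. This zinc finger protein of chromosome 7 read 7.19, 7.21, 7.26 and 7.35 in WT at P1 and was not detected on any of these arrays. At P30 it read 7.48, 7.74, 7.77 and 7.73 and was detected on all 4. It was at least 1.29-fold higher at P30, and the fitted log2 fold change was 0.43 (standard error 0.10, limma adjusted p = 0.0020), or 1.30 after normexp background correction. Plagl1, the zinc finger protein that regulates other members of the network, had log2 signals of 6.89 to 7.16 over its 3 probes and 16 arrays and was not detected on any, so that it was not tested and its level is known only to be under the detection limit of these probes.

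The same members were read again in Mef2c-het mice, which share no array with WT. Both genotypes were normalized and fitted together, with a shared variance for each probe. The standard errors, intervals and calls of either genotype therefore rest partly on arrays of the other. With each genotype fitted alone, the same members were called. In the joint fit 31.4% of probes were called lower in Mef2c-het mice, 26.9% higher and 5.05% with a fall of more than 1 on the log2 scale. All P30 arrays lay below all P1 arrays for 28.2% of probes and above for 24.3%. Of the 9 members tested, 6 were lower and 1 higher, all 7 without overlap, and Cdkn1c, H19, Mest and Grb10 again fell by more than 1. The median of the members was -0.84 against -0.024 over all probes. Cdkn1c read 11.59, 11.80, 11.71 and 11.76 in replicates 1, 2, 4 and 8 at P1 and 9.05, 8.82, 9.01 and 9.24 in replicates 3, 5, 6 and 7 at P30. Its log2 fold change of -2.68 (standard error 0.094) lay beside the -2.69 of WT.

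H19 read 8.95, 8.72, 8.59 and 8.43 in Mef2c-het mice at P1 and 7.11, 7.10, 7.07 and 7.16 at P30. It was again detected on all P1 arrays and on no P30 array, and by the same bound its mean was at least 2.54-fold higher at P1. Igf2 read 13.43, 13.06, 13.31 and 13.26 at P1 and 12.39, 12.02, 12.47 and 12.81 at P30, with a log2 fold change of -0.84 (standard error 0.17). Grb10 lay at 10.83 to 10.93 and then at 9.63 to 9.86, a change of -1.16 (standard error 0.086). Mest changed by -1.49 at its brightest probe and by -1.24 and -0.69 at the other 2. For Dlk1 the change was -0.44 (standard error 0.084), and it was detected on 4 arrays at P1 and 1 at P30. Peg3 rose by 0.41 (standard error 0.10), from no detected array to all 4.

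Ndn was the member whose call differed between the genotypes. In Mef2c-het mice it read 13.87, 13.90, 14.01 and 13.54 at P1 and 13.58, 13.73, 13.91 and 13.20 at P30. The ages overlapped, with a log2 fold change of -0.23 and a 95% interval of -0.52 to 0.067 (limma adjusted p = 0.18, two-sided exact permutation p = 0.31). The lowest array of each age, replicates 8 and 7, is of the smaller clusters. The difference between the genotypes in this change was 0.24, with a 95% interval of -0.18 to 0.65 (limma adjusted p = 0.998, p before adjustment 0.24), so that a loss of the fall in Mef2c-het mice is not shown.

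**Figure D2:**
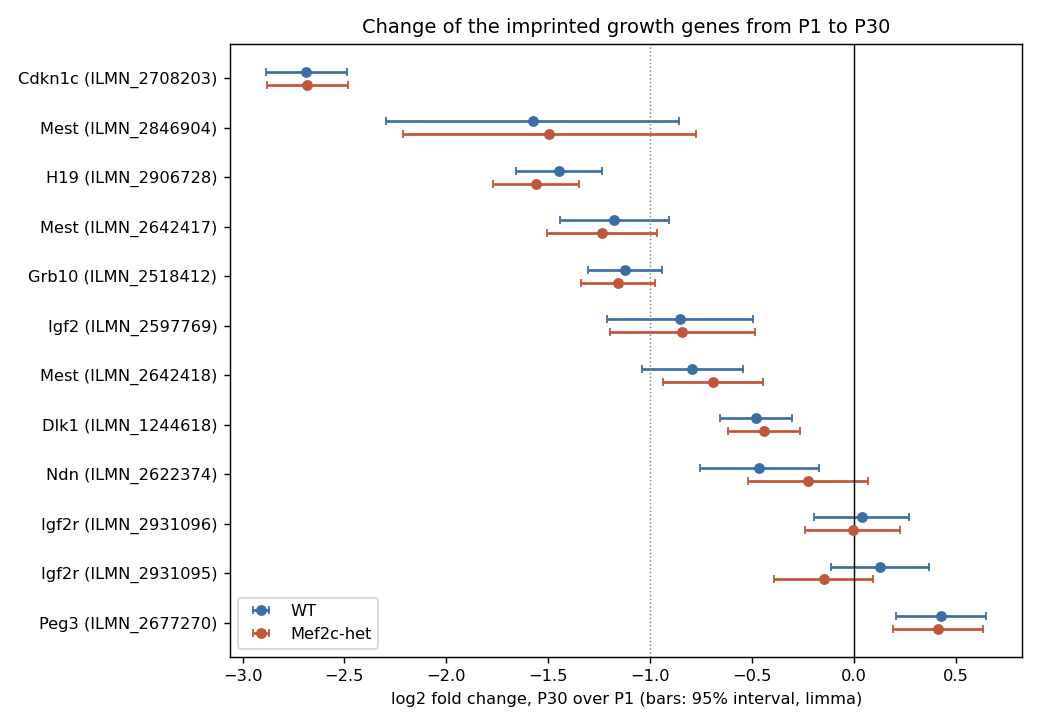
Log2 fold change from P1 to P30 (x axis) of the 12 tested probes (y axis) in WT and Mef2c-het mice, with 95% intervals from limma; the dotted line marks -1. The intervals of the genotypes overlap at every probe, Cdkn1c stands apart near -2.7, and Peg3 lies above 0.

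The order of the 4 group means was set by age for 8 of the 9 tested members. For Cdkn1c, Dlk1, Grb10, H19, Igf2, Ndn and Mest both P1 groups stood above both P30 groups, and for Peg3 below them, while the genotypes next to each other in that order were not called in any comparison in which they were tested. The order of Igf2r was WT P30, Mef2c-het P1, WT P1 and Mef2c-het P30 at the brighter probe, and arrays of neighbouring groups overlapped. As a description of shape over the 16 arrays, genes outside the set whose signal ran closely with the mean standardised signal of the members included Pdzrn3 (Pearson r = 0.99), Uba1, Tubb5 and Sfpq (each 0.98 or 0.99). The age groups make most of this likeness, since each of these genes was lower at P30, by -0.77 to -1.19 in WT.

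The second comparison asked whether Mef2c-het mice differ from WT in these genes at a given age. At P1 0% of 13566 probes were called, and so were none of the 8 members tested. Before adjustment, 1.02% of all probes had p under 0.05 and were lower and 0.604% higher, and again no member. Arrays of the genotypes stood apart for no member, nor for more than 0.73% of probes in the lower and 0.56% in the higher direction. At P30 the share of probes called lower was 0.00746% of 13413, a single probe of no member, and none of the 7 members tested was called. Before adjustment 1.69% of probes were lower and 0.664% higher with p under 0.05, and no member was among them. At both ages these are fewer probes than p under 0.05 flags where nothing differs. The tests may thus be strict here, and a missing call says little against a difference. The smaller array clusters hold arrays of both genotypes at each age, and their part in this was not tested. The values leave room for small differences. For Igf2 the log2 fold change, Mef2c-het over WT, was 0.17 at P1 (95% interval -0.069 to 0.41) and 0.18 at P30 (-0.27 to 0.63). For Cdkn1c it was -0.069 (-0.24 to 0.099) and -0.064 (-0.30 to 0.17), and for Grb10 0.017 (-0.20 to 0.23) and -0.017 (-0.18 to 0.15). H19 at P1 gave 0.14 (-0.14 to 0.41), Dlk1 at P1 -0.032 (-0.25 to 0.18) and Peg3 at P30 -0.048 (-0.31 to 0.22). Ndn gave -0.16 (-0.43 to 0.11) at P1 and 0.092 (-0.23 to 0.42) at P30. The intervals of Mest at its brightest probe were the widest, -0.67 to 0.90 at P1 and -0.38 to 0.75 at P30.

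A pair of probes came nearest to a difference, both at P30. Igf2r probe ILMN_2931095, on the scale of the 16 arrays, read 8.68, 8.61, 8.81 and 9.05 in WT and 8.43, 8.57, 8.54 and 8.71 in Mef2c-het mice. The groups overlapped, and the log2 fold change was -0.22 (95% interval -0.45 to 0.0049, two-sided exact permutation p = 0.086, limma adjusted p = 0.98). Its second probe gave -0.069. Mest probe ILMN_2642417 read 7.81, 7.76, 7.79 and 7.84 in WT and 7.75, 7.64, 7.67 and 7.74 in Mef2c-het mice, without overlap, which 1.18% of all probes showed in this direction and 0.574% in the other. Its log2 fold change was -0.095 (95% interval -0.22 to 0.031, exact permutation p = 0.029, the smallest that 4 arrays against 4 allow, limma adjusted p = 0.98), while the other 2 Mest probes gave 0.036 and 0.19. Whether the genotype effect changed with age was tested by the interaction term, which was called for 0% of the 14777 probes and for none of the 9 members. Before adjustment 1.75% of probes were lower and 1.21% higher with p under 0.05, again without a member. These too are fewer than p under 0.05 flags where nothing differs. The largest among the brightest probes was that of Igf2r, at -0.28 (95% interval -0.62 to 0.066).

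**Figure D3:**
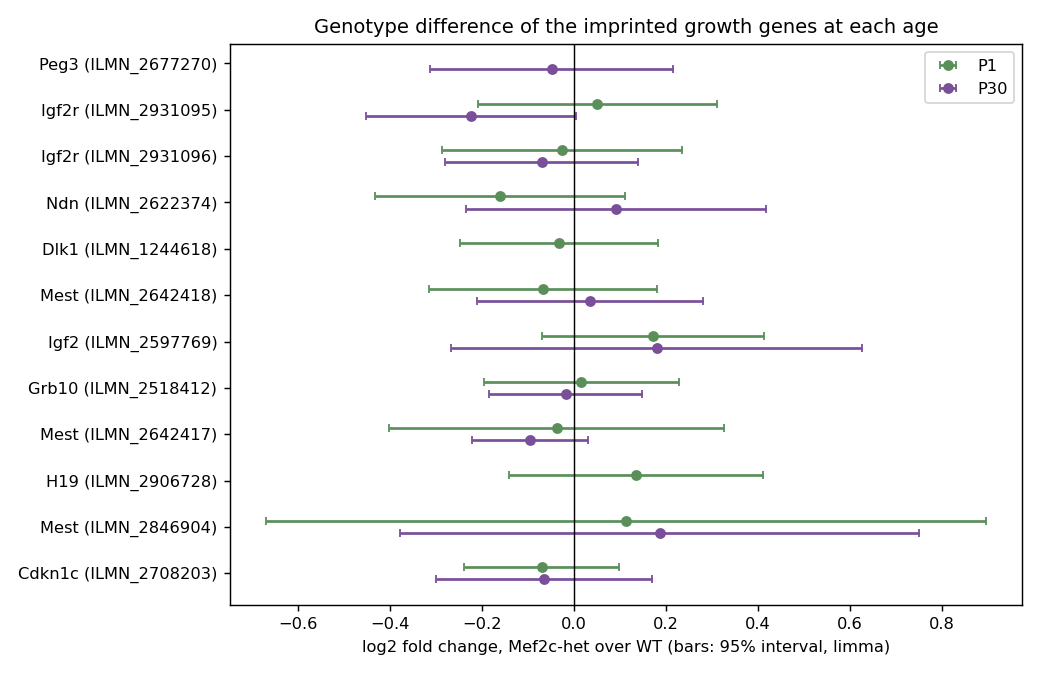
Log2 fold change, Mef2c-het over WT (x axis), of each tested probe (y axis) at P1 and P30, with 95% intervals from limma. Every interval includes 0, and the nearest to leaving it out is Igf2r probe ILMN_2931095 at P30, from -0.45 to 0.0049.

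Imprinted genes lie in clusters that share a control region, so the measured neighbours of the members were set beside them. Of 38 listed neighbours, 24 were on the array and 13 were tested. In WT 6 were higher at P30, 3 were lower and 4 were not called, with a median log2 fold change of 0.071. Over all tested probes 28% were called higher and 31.7% lower, so that a mixed list is common here. Next to Grb10 on chromosome 11, where the member changed by -1.12, Ddc, the decarboxylase of dopamine and serotonin synthesis, rose by 1.28 (standard error 0.054) and Cobl, an actin nucleator, by 0.36. Dio3, the deiodinase that inactivates thyroid hormone at the far end of the Dlk1 cluster on chromosome 12, rose by 0.49 (standard error 0.12). Usp29, which shares its promoter region with Peg3, changed by -0.32 (standard error 0.083), opposite to Peg3.

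The neighbours of Ndn on chromosome 7 were just as mixed. Mkrn3, a ubiquitin ligase best known as a brake on puberty, fell by 2.13 on the log2 scale (standard error 0.10). Snrpn, a splicing protein, rose at both its probes, by 0.75 and 1.26, and Atp10a by 0.45. Magel2 (0.071) and Ube3a (-0.11) were not called. In the distal chromosome 7 region of Igf2, H19 and Cdkn1c, Cd81 rose by 0.33, Nap1l4 changed by -0.62, and Tssc4 (-0.19) and Slc22a18 (-0.14) were not called. In Mef2c-het mice 6 of the 13 neighbours were again higher and 3 lower.

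**Figure D4:**
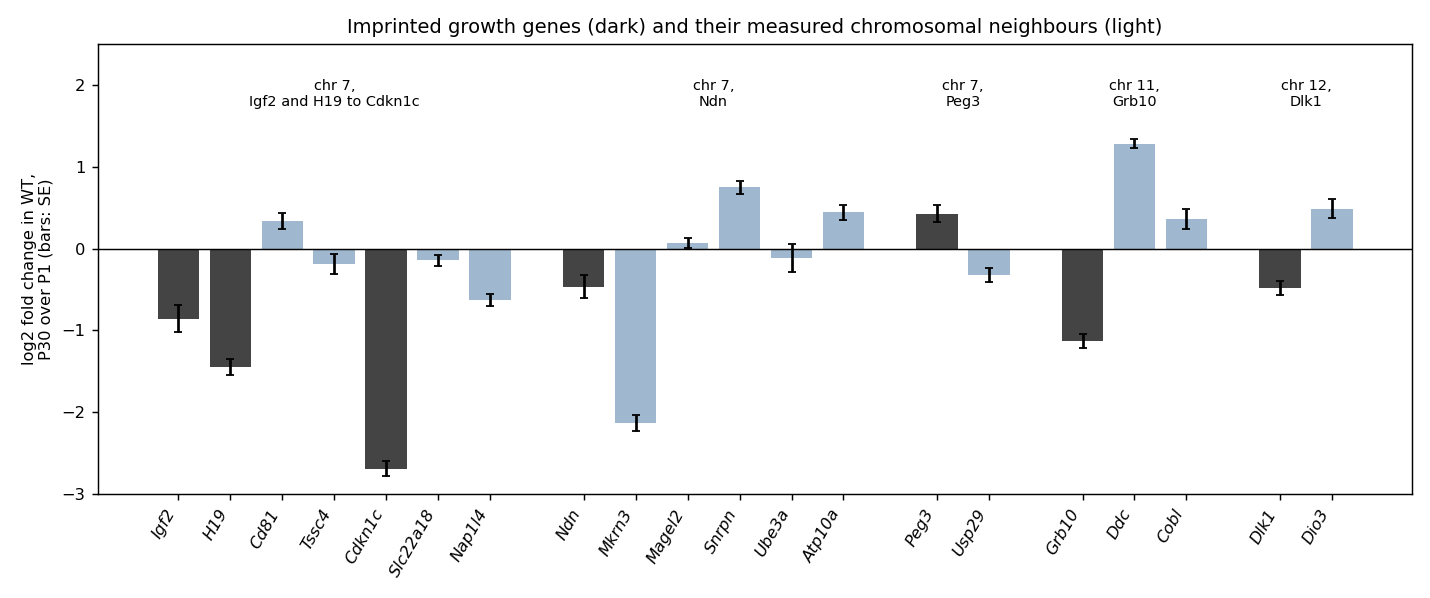
Log2 fold change from P1 to P30 in WT (y axis, bars from 0, whiskers the standard error) of members (dark) and their tested neighbours (light), grouped by chromosomal region (x axis). Grb10 and Dlk1 lie below 0 and their neighbours Ddc, Cobl and Dio3 above it, while Mkrn3 (-2.13) is the lowest neighbour.

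Imprinted genes elsewhere in the genome were split as well. Of 20 tested in WT, 7 were higher, 7 lower and 6 not called, with a median of -0.088. Over all tested probes 28% were called higher and 31.7% lower, so that this split is near that of the whole array. Rasgrf1, an exchange factor for Ras in neurons, rose by 5.51 at its brightest probe and by 5.49, 2.58 and 2.23 at the other 3, and Impact, a regulator of translation, by 2.28. Nnat, a membrane protein of developing brain, changed by -1.85 and Inpp5f, an inositol phosphatase, by -1.46 at its brightest probe, while its other 2 probes gave -0.11 each. In Mef2c-het mice 8 were higher and 8 lower.

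Genes of the IGF axis were lower at P30 more often than higher, but binding proteins and receptors were mixed. Over all tested probes 31.7% were called lower and 28% higher in WT. Of 19 tested genes of the IGF axis, 10 were lower, 4 higher and 5 not called in WT, and in Mef2c-het mice the counts were the same, with 1 gene of the lower group exchanged: Igf1 was called in WT alone (-0.33 against -0.083) and Igfbp4 in Mef2c-het mice alone (-0.16 against -0.24), while the difference between the genotypes was called for neither (limma adjusted p = 0.998 for both). Igfbpl1, a marker of newborn neurons, changed by -4.23, and the secreted binding protein Igfbp2 by -1.67. All 3 RNA-binding proteins named for binding Igf2 transcripts were lower: Igf2bp3 by -2.47, Igf2bp2 by -1.45 and Igf2bp1 by -0.76. Igfbp7 (-1.05), Igfbp3 (-0.41), the insulin receptor Insr (-0.57), the PI3-kinase subunit Pik3r1 (-0.60) and Igf1 itself (-0.33) were also lower in WT. The receptor Igf1r (-0.12), Akt1 (-0.0022), Igfbp4 (-0.16), Igfbp5 (-0.097) and the protease inhibitor Stc2 (-0.12) were not called in WT. Those that rose were Htra1, a protease that can cleave binding proteins (2.35), the adaptor Irs2 (1.10), Igfbp6 (1.04) and the growth hormone receptor Ghr (0.41), the last at 1 of its 2 probes.

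Growth genes that are not imprinted were read as well. Of 13 tested fetal growth genes outside the set, 10 were lower and none higher in WT, with a median of -0.76, and 9 were lower in Mef2c-het mice. They include the growth factor Mdk (-2.07) and the Igf2bp genes already counted. The genes that keep imprints through cell division were lower in 7 of 8 tested, with a median of -1.001 in WT and -1.10 in Mef2c-het mice. Uhrf1, which brings DNMT1 to newly copied DNA, changed by -2.62, and Zfp57, the zinc finger protein that marks imprinted regions, by -1.84. Genes of both lists are also high in dividing cells. Summed linear signal of the 11 tested proliferating cell genes was 6702 to 8318 in WT at P1 and 2008 to 2132 at P30, and their median log2 fold change was -1.90. Immature neuron genes had a median of -0.90, and the part of either cell type in the falls of the members was not tested. Over deviations of the 16 arrays from their group means, immature neuron genes had a Pearson r of 0.97 with Mest. It was 0.80 with Ndn, -0.78 with Igf2r and -0.52 to 0.46 with the other members. Mest, Ndn and Igf2r also differed in mean between the array clusters, whose part in this was not tested.

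Igf2 was also set against markers of the cells known to make it. Choroid plexus markers had a median age change close to that of Igf2 (-0.83 against -0.85 in WT and -0.78 against -0.84 in Mef2c-het mice), but of the 10 tested in WT only Otx2 (-0.90) and Calml4 (-0.62) were called lower, Kl and Prlr were higher, and 6 were not called, among them Ttr, named after its value was seen, at -2.34 (standard error 1.00). Of 16 tested meningeal and fibroblast markers, 2 were higher, 3 lower and 11 not called at P30 in WT, with a median log2 fold change of -0.041. The part of either cell type in the fall of Igf2 was not tested. The summed signal of these markers was 5128 to 6338 in WT at P1 and 6090 to 8988 at P30, and Foxc2 and Foxd1 were not detected on any array. Within groups, Igf2 ran with the meningeal markers and, at a single age, with other lists too. Over the deviations of the 16 arrays from their group means, Igf2 and the mean of the 16 markers had a Pearson r of 0.94 and a Spearman rho of 0.90, and r was 0.89 without the 2 arrays farthest in the markers. On the 11 arrays of the larger clusters r was 0.97. At P30 alone it was 0.95, and 0.80 without the 2 farthest arrays. At P1 alone r was 0.93 over 8 arrays but 0.45 without the 2 farthest, so that the relation at P1 rests on those arrays. At P1 the proliferating cell markers ran as closely with Igf2 (r = 0.95, and 0.90 without the 2 farthest arrays), and microglia markers gave 0.84, while at P30 these gave -0.49 and 0.016. Pericyte markers gave 0.63 over the 16 arrays and 0.78 on the larger clusters, and hippocampal neuron markers -0.83 at P30. The P30 relations were not particular to Igf2. Meningeal markers at P30 gave 0.79 for Dlk1, 0.74 for Cdkn1c, 0.72 for H19 and 0.67 for Grb10. Without the 2 farthest arrays these were 0.36, 0.44, -0.46 and 0.51. Hippocampal neuron markers at P30 gave -0.90, -0.72, -0.54 and -0.89 in the same order. The points share their arrays and dissections, and the values are given as a description.

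**Figure D5:**
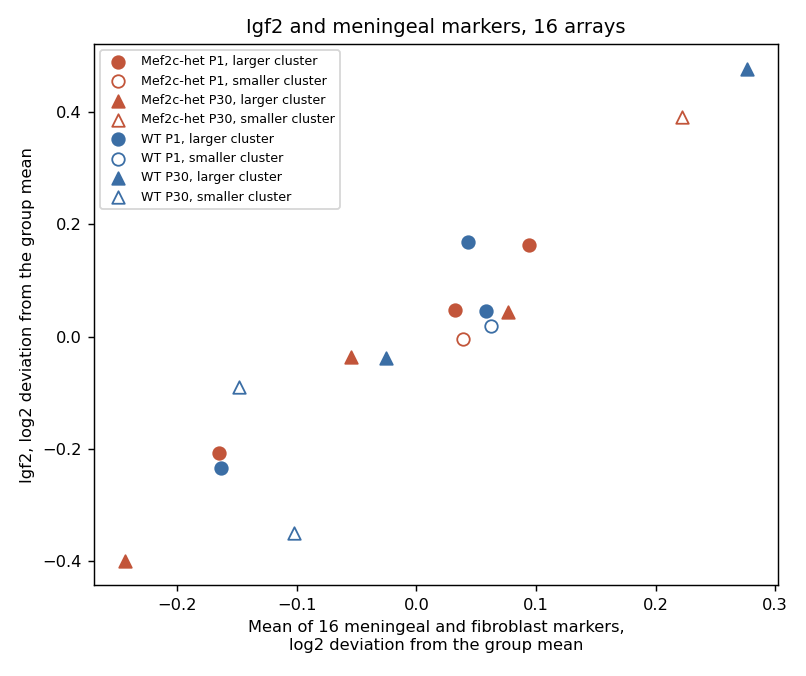
Deviation of Igf2 from its group mean (y axis, log2) against that of the mean of 16 meningeal and fibroblast markers (x axis, log2) on the 16 arrays; circles are P1, triangles P30, and open symbols the smaller array clusters. WT replicate 3 at P30 is highest in both and Mef2c-het replicate 5 at P30 lowest in both.

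The gene outside the set that followed Igf2 most closely within groups was Slc6a13, a transporter of meningeal cells that is itself 1 of these markers (r = 0.90), and the next were Tgm2 (0.89) and the collagen processing gene Pcolce (0.87). These were named after their values were seen. Choroid plexus markers varied far more between arrays, with a summed signal of the 10 tested from 7444 to 35644 in WT at P1, 2256 to 23607 in WT at P30 and 3021 to 5609 in Mef2c-het mice at P30. Their relation to Igf2 within groups was r = 0.30 over the 16 arrays. At P1 it was 0.64, and 0.86 without the 2 farthest arrays, and at P30 it was 0.13. For the members that changed most, the closest genes within groups were Vamp1 for Cdkn1c (r = 0.83) and the transcription factor gene Sp5 for H19 (r = 0.86). No such value is given for Mest, whose deviations follow the 2 array clusters. Each closest gene has the highest r over all tested genes outside the set, so that the search alone can give a high value. H19 was not detected at P30, where its deviations are those of signal near background. Other markers moved with age in WT: of 11 microglia markers 9 were higher, of 11 astrocyte markers 9 were higher and 1 lower, and of 10 hippocampal neuron markers 7 were higher and 2 lower. Of 9 endothelial markers 4 were higher and 4 lower, of 7 pericyte markers 2 were higher, and of 4 erythroid markers 2 were lower.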

How the data were processed

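RNA of 16 hippocampus samples was measured on Illumina beadchips. The authors deposited for each probe and array a mean bead intensity before any normalization across arrays, its detection p-value and, as other columns, a bead number and standard error. The submitters' processing notes name lumi and limma, and the study's methods state log2 and quantile normalization, with tool versions and background handling not given in the sources used here. Whether the columns of all 16 arrays come from separate mice is not stated.

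Deposited intensities, of which the lowest was 92.8, were transformed to log2 and quantile normalized over the arrays of a fit, and tested with limma 3.58.1 in R 4.3.3 (lmFit, eBayes, two-sided, Benjamini-Hochberg over all probes tested). A probe was kept if at least 4 arrays of the fit had a detection p under 0.05. Age changes and the interaction come from all 16 arrays (14777 probes), and genotype effects from the 8 arrays of an age (13566 at P1, 13413 at P30). Single probes were also compared by exact permutation over 70 assignments. A gene stands by its probe of highest mean signal unless another is named. Probes were named through the RefSeq gene table for 25376 of 25697.

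All members with every probe are named, every tested neighbour and IGF axis gene, from other lists those past the threshold with the 2 largest rises and falls, and the genes most like the members or like the 3 that changed most, apart from 1 that is not reported here. The members and lists were chosen with earlier results of these data known. The CDK inhibitors not called, the relation of Igf2 and of other members to markers and the choice of promoters were named after their values were seen. Alternatives were normexp background correction (offset 16), median scaling, cyclic loess, the filter dropped or set to a detection p of 0.01, 1 probe per gene, trend and robust variances, other arrays in the fit, the array clusters, the replicate number as a block, and leaving out each array. The steps were tested on simulated data: for WT P30 against P1 (14777 probes), 100% of 50 probes with a true log2 change of 1 and 74% of 50 with 0.5 were called, and for Mef2c-het against WT at P30 (13413 probes) 96% and 64%. The simulated data had independent noise for each probe, few changed probes, and no array clusters or background limit. These shares therefore need not hold for the real arrays. Precision is limited by the 4 arrays of a group.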

Additional observations from a re-analysis of the deposited data

Results flagged for a closer look

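Of the 60 sets of 4 arrays formed by the 15 probes and 4 groups, 5 held an array set apart from its 3 fellows, measured as its gap to the nearest of them over the whole range of the set. Chance flags about 1 in 20 groups, or 3 here. H19 in WT at P1 was highest in replicate 4 at 8.81, with a gap share of 0.885. Igf2r probe ILMN_2931096 in Mef2c-het mice at P1 was highest in replicate 8 at 8.80 (0.852), and Mest probe ILMN_2846904 in the same group was lowest in the same replicate at 8.28 against 9.52 for the next (0.871). That array is of the smaller cluster with the higher background. Peg3 in WT at P30 was lowest in replicate 2 at 7.48 (0.864), and Plagl1 probe ILMN_1240034, which was not detected, in WT at P1 in replicate 4 at 6.92 (0.869). Without the smaller clusters the age change of that Mest probe was -1.63 in Mef2c-het mice against -1.49 with them.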

How the results depend on the processing

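The counts of members called moved little: 6 to 7 were lower and 1 higher at P30 in WT under the 9 settings tried, in Mef2c-het mice 6 were lower and 1 higher under each of 9, and no member was called between the genotypes or for the difference between ages under any. The setting that ended a call was median scaling, for Ndn in WT (-0.51, adjusted p = 0.073, against 0.0030 to 0.073 over the settings). The median of the members moved more. In WT it was -1.25 with normexp background correction, -0.74 with cyclic loess, -0.67 without a filter, which adds Plagl1, and -0.63 without the smaller array clusters, and -1.01 to -0.74 when 1 array was left out. In Mef2c-het mice it was -1.29, -0.75, -0.64 and -0.98, and -0.98 to -0.71 with 1 array left out. Normexp moved dim probes most and the called directions of the brightest probes were kept. Over all probes, the count called between genotypes at P1 was 2 with all 16 arrays together and 1 with the array clusters as a block. At P30 the single called probe was lost under normexp, median scaling and cyclic loess, with counts of 0, and with 1 array left out the count was 0 to 1, being 0 without any of WT replicates 2, 3, 6 and 7 and Mef2c-het replicates 5, 6 and 7. Whether replicate numbers shared between genotypes pair the arrays is not stated, and the main fits treat the arrays as unpaired. The deviations of same-numbered arrays had r of 0.091, 0.40 and 0.82 at P1 and 0.17, -0.52 and 0.70 at P30. At P1 each WT array that shares a number correlated best with the Mef2c-het array of that number, and at P30 not every one did. The pairs at 0.82 and 0.70 both lie in the smaller array clusters, so that these values cannot settle whether the arrays are paired. With the replicate block, 3 probes were called at P1 and 0 at P30, none of a member, and these values changed sign without being called: Grb10 (-0.033), Igf2r probe ILMN_2931095 (-0.022) and Mest probe ILMN_2642418 (0.0071) at P1, Grb10 (0.043) and Cdkn1c (0.011) at P30, and Grb10 for the difference between ages (0.077). Other uncalled values that changed sign were Igf2r probe ILMN_2931096 for the age change in WT (median scaling -0.042, without the smaller clusters -0.048) and in Mef2c-het mice (normexp 0.00047, cyclic loess 0.055, without the smaller clusters 0.062), Grb10 at P30 (median scaling 0.017, cyclic loess 0.0081), Mest probe ILMN_2846904 (-0.0082) and Peg3 (0.011) at P30 with the clusters as a block, and, for the difference between ages, Cdkn1c (normexp -0.013, cyclic loess -0.00095) and Igf2 (cyclic loess -0.0067). The cause of these changes was not tested.

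With 1 array left out, no called value changed sign. Uncalled ones did, over these ranges: for the age change Igf2r probe ILMN_2931096 (-0.022 to 0.11) in WT and Igf2r probe ILMN_2931096 (-0.064 to 0.12) in Mef2c-het mice. For Mef2c-het against WT at P1 they were Igf2r probe ILMN_2931096 (-0.15 to 0.033), Mest probe ILMN_2846904 (-0.15 to 0.45), Dlk1 probe ILMN_1244618 (-0.086 to 0.056), Mest probe ILMN_2642417 (-0.16 to 0.071), Igf2r probe ILMN_2931095 (-0.023 to 0.15), Mest probe ILMN_2642418 (-0.14 to 0.0045) and Grb10 probe ILMN_2518412 (-0.044 to 0.10). At P30 they were Peg3 probe ILMN_2677270 (-0.14 to 0.019), Cdkn1c probe ILMN_2708203 (-0.14 to 0.0036), Grb10 probe ILMN_2518412 (-0.065 to 0.016), Mest probe ILMN_2642418 (-0.062 to 0.12) and Ndn probe ILMN_2622374 (-0.0086 to 0.23). For the difference between ages they were Cdkn1c probe ILMN_2708203 (-0.077 to 0.074), Mest probe ILMN_2642417 (-0.17 to 0.057), Igf2 probe ILMN_2597769 (-0.12 to 0.17), Peg3 probe ILMN_2677270 (-0.11 to 0.051), Dlk1 probe ILMN_1244618 (-0.046 to 0.092), Igf2r probe ILMN_2931096 (-0.11 to 0.078), Mest probe ILMN_2846904 (-0.24 to 0.35), Mest probe ILMN_2642418 (-0.0020 to 0.19) and Grb10 probe ILMN_2518412 (-0.12 to 0.028). Signals near the negative controls, those of H19 at P30, Peg3 at P1, Dlk1 at P30 and Plagl1, bound the folds that can be read.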
